A study of Homo sapiens with 12 samples.

Results

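The NF-κB transcription factor family and its inhibitors were examined at the level of mRNA in HCC1806, an established human triple-negative breast cancer (TNBC) cell line. The set was defined by gene symbol and comprised the 5 subunit genes NFKB1, NFKB2, RELA, RELB and REL, the 4 IκB genes NFKBIA, NFKBIB, NFKBIE and NFKBIZ, and TNFAIP3. All 10 genes were present among the 17013 genes of the mRNA-seq table. The study asked how the kinase MLK4 (gene MAP3K21) shapes the response of TNBC cells to DNA-damaging chemotherapy. Cells were transfected with a non-targeting siRNA (siNT) or with a pool of 4 MLK4-targeting siRNAs (siMLK4). They then received vehicle (DMSO in the sample labels, t0 in the sample titles and untreated in the methods) or 1 μM doxorubicin, a topoisomerase II poison, for 24 h. Each of the 4 groups (siNT vehicle, siNT doxorubicin, siMLK4 vehicle and siMLK4 doxorubicin) held 3 libraries, and each library held 16759025 to 19302248 reads over the genes of the table. Knock-down was transient and in 1 cell line. The methods say of these libraries that cells were transfected in triplicate. Of experiments in general they say that each was done 3 or more times unless stated otherwise. Neither statement says whether the 3 libraries of a group are separate experiments. The p-values therefore measure the spread between these libraries, which may be technical.

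NF-κB factors are dimers of REL-homology proteins. The precursors encoded by NFKB1 and NFKB2 are processed to p50 and p52, which pair with the activating subunits RELA (p65), RELB and REL. In resting cells the classical IκB proteins hold dimers in the cytoplasm until the IKK kinase complex marks them for degradation. A second, non-canonical route passes through processing of the NFKB2 product and acts mainly through RELB. After DNA double-strand breaks, the kinase ATM and the IKK subunit NEMO (IKBKG) are known to carry a signal from the nucleus to IKK. Several genes of the family are themselves known NF-κB targets, among them NFKBIA, NFKB2, RELB and TNFAIP3, so their mRNA levels are often read together with the pathway. The values here are mRNA levels and say nothing of protein modification, degradation or location.

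The guide strands of the 4 siRNAs are shown because the seed of a guide can also pair with the 3′UTR of other mRNAs. Each was computed as the complement of the strand listed by the study, without the overhang, and the capitals mark the seed, bases 2 to 8 from the 5′ end.
siMLK4 #1 guide: uCUCUCUGagcaucuuucc
siMLK4 #2 guide: uUUACCUUgggcuucuccu
siMLK4 #3 guide: aUUCCCUCucguuucuucu
siMLK4 #4 guide: uUUCUUUGcaaucuguucu
All 4 were complementary over 19 bases to coding sequence of MAP3K21 on the plus strand of chromosome 1 (GRCh38, GENCODE release 44). The site of siMLK4 #1 lay at chr1:233379030-233379048 in exon 9, that of siMLK4 #2 at chr1:233362204-233362222 in exon 5, that of siMLK4 #3 at chr1:233379276-233379294 in exon 9 and that of siMLK4 #4 at chr1:233376047-233376065 in exon 7. Among the 10 genes, 5 had at least 1 match to a seed in the annotated 3′UTR, a share to be read beside 44.3% of 13583 protein-coding genes. NFKB1, NFKBIE and TNFAIP3 each held 1 match to the seed of siMLK4 #1, REL held 4 and NFKBIZ held 1 to that of siMLK4 #2, and RELB, RELA, NFKB2, NFKBIA and NFKBIB held none. A match is a description of letters, and its part in any difference below was not tested.

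MAP3K21 was measured first as a check of the labels. It lay between 553.1 and 673.6 normalised reads (reads divided by the size factor of the library) in the 3 siNT vehicle libraries and between 88.65 and 103.2 in the 3 siMLK4 vehicle libraries. With doxorubicin the ranges were 757.6 to 856.1 in siNT and 94.35 to 138.4 in siMLK4 cells. The siMLK4 libraries were thus below every siNT library under both treatments, at 15.1% of the siNT mean with vehicle (log2 fold change −2.24, SE 0.12, adjusted p = 9.7e-08) and at 14.5% with doxorubicin (−2.37, SE 0.12, adjusted p = 1.1e-07). These and all following adjusted p-values are from limma over 17013 genes with Benjamini-Hochberg adjustment, and a gene passed the test at an adjusted p under 0.05. Fold changes are on the variance-stabilised log2 scale, on which the change of a gene with few reads is understated.

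Basal epithelial markers were all measured, 8 of 8, with KRT5 the most abundant. Their summed normalised reads lay between 70770 and 76200 in siNT vehicle, 39180 and 43790 in siNT doxorubicin, 65900 and 70940 in siMLK4 vehicle, and 27890 and 31510 in siMLK4 doxorubicin libraries. Of 4 leukocyte markers, CD14 and PTPRC were in the table, with CD14 the more abundant, and their sum ranged from 12.92 to 19.08 in siNT vehicle, 38.68 to 52.6 in siNT doxorubicin, 19.04 to 36.76 in siMLK4 vehicle and 49.18 to 64.21 in siMLK4 doxorubicin libraries. Of 5 endothelial and fibroblast markers, 3 were in the table, led by COL1A1, and their sum ranged from 295.9 to 361.7 in siNT vehicle, 289.1 to 312.8 in siNT doxorubicin, 549 to 659.5 in siMLK4 vehicle and 384.4 to 548 in siMLK4 doxorubicin libraries. All 4 luminal and receptor markers were in the table, with GATA3 the most abundant, and their sum ranged from 2656 to 3162 in siNT vehicle, 3453 to 3725 in siNT doxorubicin, 3860 to 5095 in siMLK4 vehicle and 4161 to 4579 in siMLK4 doxorubicin libraries. Group means were 1304 to 2442 normalised reads for GATA3, 1459 to 1893 for ERBB2 and 46.54 to 117.1 for the estrogen receptor gene ESR1. The progesterone receptor gene PGR had 7.258 to 18.46 normalised reads in the 6 doxorubicin libraries and 0 reads in all 6 vehicle libraries, and at this depth a count of 0 allows up to 3 reads in a library, a limit that covers counting error only. CD3E, the defining T cell marker of the list, was not among the genes of the table. The basal sum was lower with doxorubicin under both siRNAs and, among drug-treated libraries, lower in siMLK4 than in siNT cells with no overlap. After knock-down 4 of the 8 basal markers passed as lower under each treatment, and 1, KRT5, passed as higher with vehicle. Of all genes, 13% were lower and 12.7% higher with vehicle, and 12.1% and 12.7% with doxorubicin. KRT5 was also the 1 basal marker that passed for the difference between the drug responses (−0.96, adjusted p = 0.047 by limma). The leukocyte sum moved with doxorubicin, the luminal sum with knock-down and, in siNT cells, with doxorubicin, and the endothelial and fibroblast sum with knock-down and, in siMLK4 cells, with doxorubicin, where it was lower. In siNT cells doxorubicin raised 2 and lowered 1 of the 4 luminal markers, beside 29.6% and 27.7% of all genes. The lowered gene was ESR1, at 50.2% of vehicle (−0.61, adjusted p = 0.0072 by limma). Knock-down raised 2 of the 4 luminal markers with vehicle and 0 with doxorubicin. PDGFRB, with few reads, fell with doxorubicin in siNT cells to 20.2% of vehicle (−0.58, adjusted p = 0.00078 by limma). The part of these marker changes in the results below was not tested. In bulk samples, fewer cells of a type and less RNA per cell cannot be told apart.

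Between genes, levels were compared only per kilobase (kb) of the canonical transcript. Reads were counted per gene and not per transcript, so the order of genes and the sums that follow depend on this choice of length. The annotated 3′UTR of that transcript is 9077 bases for REL and 57 for NFKBIB. In siNT vehicle cells the mean level was highest for NFKBIA, which encodes IκBα, at 1050 ± 189 normalised reads per kb (SD, n = 3), and for NFKBIB, which encodes IκBβ, at 939 ± 277. RELA followed at 699 ± 55.6, NFKB2 at 389 ± 64.9, NFKB1 at 348 ± 33.4 and TNFAIP3 at 226 ± 29.6. The low end held NFKBIE, which encodes IκBε, at 117 ± 33.8, RELB at 104 ± 15.7, the atypical nuclear IκB gene NFKBIZ at 84.1 ± 15.9 and REL at 38.7 ± 17.6 per kb. Neighbours in this order overlapped between their libraries for NFKBIA and NFKBIB, NFKBIB and RELA, NFKB2 and NFKB1, NFKBIE and RELB, and RELB and NFKBIZ, so these pairs have no order beyond their spread. With doxorubicin in siNT cells NFKB2, at 548 ± 32.7 per kb, and RELA, at 535 ± 11.8 per kb, overlapped between their libraries, and RELB at 140 ± 7.14 stood above NFKBIE at 96.8 ± 10.8 with no overlap. In siMLK4 vehicle cells RELB was second from last at 58.2 ± 13.2 per kb, and its libraries overlapped those of REL at 39.2 ± 12.8 per kb. In siMLK4 doxorubicin cells RELB, at 139 ± 21.5 per kb, stood above TNFAIP3, at 107 ± 2.7 per kb, with no overlap.

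**Figure D1:**
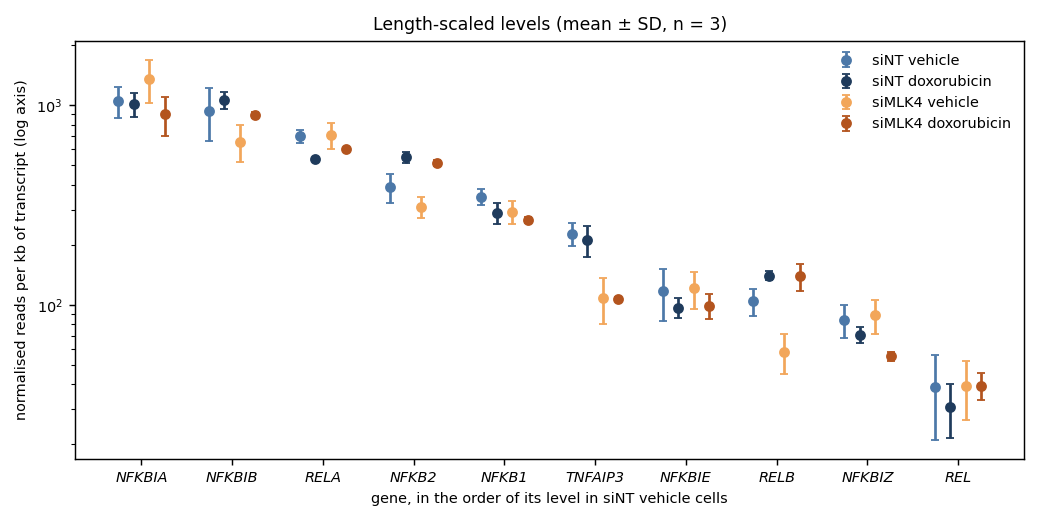
Mean level of each of the 10 genes in normalised reads per kb of canonical transcript (log axis), with SD over 3 libraries, for the 4 groups, ordered by the level in siNT vehicle cells. NFKBIA or NFKBIB is the highest and REL the lowest in each of the 4 groups, and the RELB level in siMLK4 vehicle cells, 58.2 per kb, is below its level in the other 3 groups.

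By share, NFKB2 and RELB were a larger part of the subunit mRNA with doxorubicin than with vehicle, while the summed level of all subunits stayed within a narrower range. The summed level of the 5 subunits was 1580 ± 34.1 normalised reads per kb in siNT vehicle, 1540 ± 72.8 in siNT doxorubicin, 1410 ± 142 in siMLK4 vehicle and 1560 ± 51.9 in siMLK4 doxorubicin cells (SD, n = 3 each). NFKB2 and RELB, the pair of the non-canonical route, made up 31.3% ± 5.54 of that sum in siNT vehicle and 44.6% ± 1.89 in siNT doxorubicin cells, and 26.3% ± 4.69 in siMLK4 vehicle and 41.9% ± 1.31 in siMLK4 doxorubicin cells. The classical inhibitors NFKBIA, NFKBIB and NFKBIE summed to 2100 ± 498, 2160 ± 170, 2140 ± 484 and 1900 ± 240 per kb in the same order of groups (siNT vehicle, siNT doxorubicin, siMLK4 vehicle, siMLK4 doxorubicin). Per library, the ratio of this inhibitor sum to the subunit sum was 1.33 ± 0.337, 1.41 ± 0.173, 1.55 ± 0.507 and 1.22 ± 0.124 in that order, and differed between groups by no more than the SD of the vehicle groups. These sums were given no test.

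Counted over the 10 genes, doxorubicin raised 2 and lowered 1 in siNT cells, beside 29.6% of all genes tested that passed as higher and 27.7% that passed as lower. In siMLK4 cells it raised 3 and lowered 2, beside 30.2% and 27.7% of all genes. Knock-down with vehicle raised 0 and lowered 2, beside 12.7% and 13% of all genes, and knock-down with doxorubicin raised 0 and lowered 1, beside 12.7% and 12.1%. At an unadjusted p under 0.05, limma gave 4 members with vehicle and 1 with doxorubicin in these knock-down comparisons, and limma-voom gave 4 and 2. For the difference between the drug responses 0 members passed in either direction, beside 0.576% of all genes higher and 0.623% lower, while 1 had an unadjusted p under 0.05 by limma (RELB) and 1 by limma-voom. Counts of 0 to 3 out of 10 genes lie near what these shares of all genes give, and nothing is read from them about the set as a whole.

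Over the 10 genes the log2 fold change had a median of −0.15 for doxorubicin in siNT cells, −0.05 for doxorubicin in siMLK4 cells, −0.11 for siMLK4 with vehicle and −0.10 for siMLK4 with doxorubicin. The medians of all genes were 0.005, 0.018, 0.012 and 0.023. At the stricter thresholds of the study, which ask for an adjusted p under 0.01 together with a log2 difference of more than 0.75 in size, 0 members passed for doxorubicin in siNT cells, beside 22.7% of all genes, and 1 in siMLK4 cells, RELB, beside 23.2%. TNFAIP3 was the 1 member that passed in each knock-down comparison, beside 5.65% of all genes with vehicle and 5.58% with doxorubicin, and 0 passed for the difference between responses, beside 0.276%. The study set its cutoff on corrected DESeq2 fold changes, whereas here it was set on the variance-stabilised scale, so calls near it can differ. RELB after knock-down with vehicle, at 56.1% of the siNT mean, gave −0.66 on that scale (adjusted p = 0.0042 by limma). The comparisons share libraries: each vehicle or doxorubicin group enters both a drug comparison and a knock-down comparison, so a low vehicle group, as for RELB in siMLK4 cells, enters both.

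**Figure D2:**
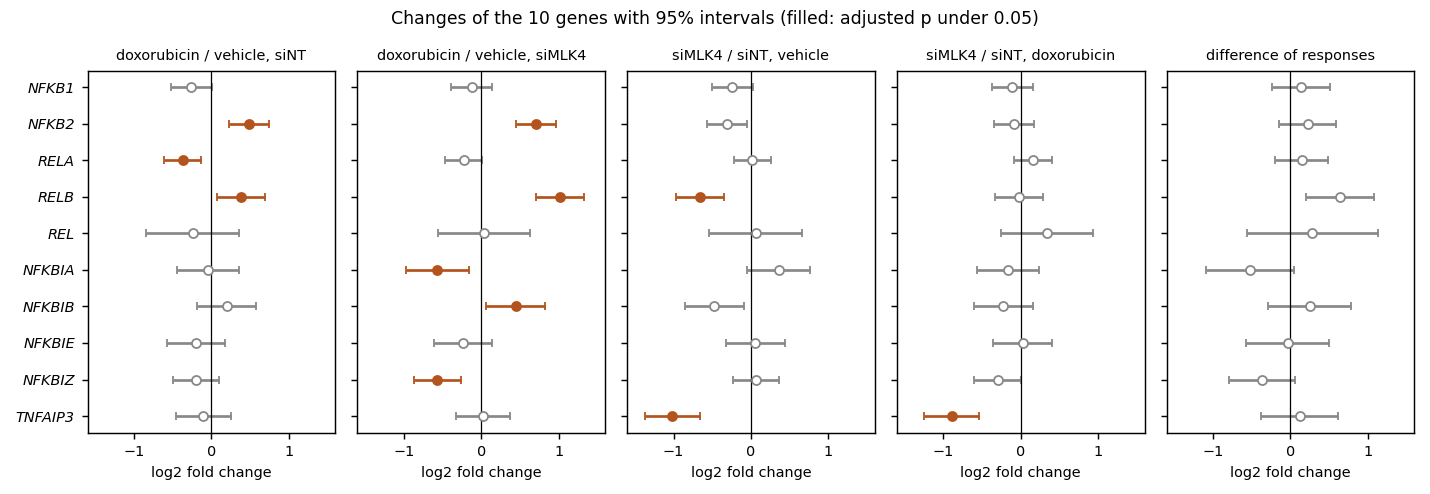
Log2 fold change with 95% interval of the 10 genes in the 5 comparisons, filled where the adjusted p was under 0.05. RELB reaches 1.02 for doxorubicin in siMLK4 cells and TNFAIP3 lies at −1.01 and −0.89 in the knock-down comparisons, while no gene is filled for the difference of responses.

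RELB and NFKB2, which form the RELB:p52 dimer, were the members that rose with doxorubicin under both siRNAs. In siNT cells RELB had 274.8, 215.9 and 211.1 normalised reads with vehicle and 301.8, 333.9 and 315.3 with doxorubicin. In siMLK4 cells it had 97.19, 145.5 and 151.4 with vehicle and 289.2, 281.8 and 369.3 with doxorubicin. The drug-treated libraries were above all vehicle libraries under each siRNA, and the siMLK4 vehicle libraries were the lowest of all 12. RELB rose by 0.38 in siNT cells (SE 0.14, adjusted p = 0.037) to 136% of vehicle, and by 1.02 in siMLK4 cells (SE 0.14, adjusted p = 4.2e-05) to 239% of vehicle. Before drug, RELB was lower after knock-down, where siMLK4 against siNT gave −0.66 (SE 0.14, adjusted p = 0.0042), or 56.1% of the siNT mean, and with doxorubicin the same comparison gave −0.02 (95% interval −0.33 to 0.29, adjusted p = 0.93), or 98.9%. The difference between the 2 drug responses was 0.64 (95% interval 0.20 to 1.08, unadjusted p = 0.00718) and did not pass after adjustment (adjusted p = 0.15). The call in siNT cells was not firm, with an adjusted p of 0.051 under TMM scaling, and it was lost when any of 5 of the 6 libraries compared was left out. The adjusted p was 0.11 without siNT vehicle replicate 2 or without siNT vehicle replicate 3, and 0.059, 0.10 and 0.072 without siNT doxorubicin replicates 1, 2 and 3 in turn. RELB lies on the plus strand of chromosome 19, from 45001461 to 45038192.

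NFKB2, on the plus strand of chromosome 10 from 102394110 to 102402524, encodes the p100 precursor of p52. Its normalised reads were 1400, 1057 and 1065 in siNT vehicle, 1678, 1737 and 1544 in siNT doxorubicin, 815.6, 1031 and 949.2 in siMLK4 vehicle, and 1532, 1508 and 1613 in siMLK4 doxorubicin libraries. Drug-treated libraries lay above vehicle libraries under both siRNAs with no overlap. The rise was 0.49 in siNT cells (SE 0.12, adjusted p = 0.0036), to 141% of vehicle, and 0.71 in siMLK4 cells (SE 0.12, adjusted p = 0.00021), to 166%. The siMLK4 vehicle libraries were below the siNT vehicle libraries with no overlap, at 79.4% of their mean, but the difference of −0.31 did not pass (SE 0.12, adjusted p = 0.075). With doxorubicin siMLK4 against siNT gave −0.09 (95% interval −0.35 to 0.17, adjusted p = 0.64).

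The promoter windows of NFKB2, TNFAIP3 and NFKBIA are shown because these genes are known NF-κB targets, of which NFKB2 passed in both drug comparisons, TNFAIP3 in both knock-down comparisons and NFKBIA for doxorubicin in siMLK4 cells. The NFKB2 window shown is 1 of 3. The sequences are from RefSeq (GRCh38.p14), run from 250 bases before to 50 bases after the start site, and are written 5′ to 3′ on the strand of the gene. Capitals mark matches of the 10-base κB consensus on either strand, and a palindromic or shifted match can overlap another.
NFKB2, chr10:102394328-102394627, plus strand: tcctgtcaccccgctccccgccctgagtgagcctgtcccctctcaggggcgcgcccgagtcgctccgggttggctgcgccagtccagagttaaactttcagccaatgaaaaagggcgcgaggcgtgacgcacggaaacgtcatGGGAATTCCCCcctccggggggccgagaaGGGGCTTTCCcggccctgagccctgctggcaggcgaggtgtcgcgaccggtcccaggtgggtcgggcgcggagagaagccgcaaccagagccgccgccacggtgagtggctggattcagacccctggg
TNFAIP3, chr6:137867009-137867308, plus strand: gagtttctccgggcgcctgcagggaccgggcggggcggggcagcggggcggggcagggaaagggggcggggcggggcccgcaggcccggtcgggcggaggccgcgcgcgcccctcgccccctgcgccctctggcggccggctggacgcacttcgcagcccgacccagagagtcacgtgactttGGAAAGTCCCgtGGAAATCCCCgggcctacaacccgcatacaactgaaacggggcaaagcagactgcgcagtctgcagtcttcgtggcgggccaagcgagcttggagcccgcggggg
NFKBIA, chr14:35404700-35404999, minus strand: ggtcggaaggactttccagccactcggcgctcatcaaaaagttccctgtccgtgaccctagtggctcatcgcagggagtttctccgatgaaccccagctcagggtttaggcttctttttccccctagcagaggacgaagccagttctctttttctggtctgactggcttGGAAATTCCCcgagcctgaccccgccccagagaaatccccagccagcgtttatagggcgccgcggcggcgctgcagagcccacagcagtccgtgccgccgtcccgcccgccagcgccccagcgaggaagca
The NFKB2 window held an overlapping pair of matches at −107 to −97, counted from the start site, and a further one at −78 to −69. The TNFAIP3 window held matches at −67 to −58 and −55 to −46, and the NFKBIA window held 1 at −81 to −72. In all, 8 of the 10 genes had 14 windows in the RefSeq table (not RELB and NFKBIE), and 7 of these genes had a match in at least 1 window, NFKB1, NFKB2, REL, NFKBIA, NFKBIB, NFKBIZ and TNFAIP3, while both windows of RELA held none. By window, 9 of the 14 held a match, beside 5.91% of all 35116 promoter windows of the same length. A match describes the sequence and was not tested as a bound site.

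**Figure D3:**
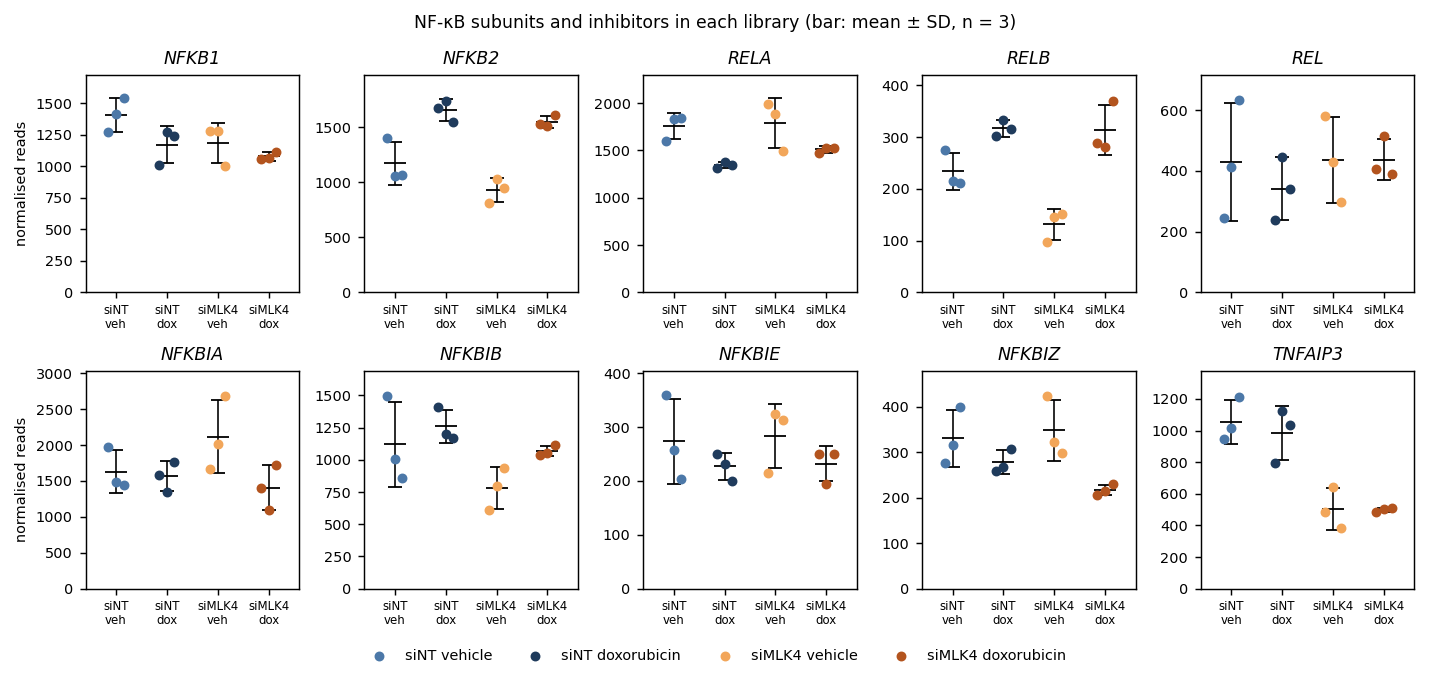
Normalised reads of the 10 genes in each of the 12 libraries (points), with mean and SD of the 3 libraries of each group. RELB is lowest in the siMLK4 vehicle libraries (97.19 to 151.4), NFKB2 is higher with doxorubicin under both siRNAs, and TNFAIP3 is lower in all 6 siMLK4 libraries (382.7 to 644.7) than in all 6 siNT libraries (793.6 to 1210).

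The main activating subunit and the p50 precursor gene did not follow RELB and NFKB2. RELA, on the minus strand of chromosome 11 from 65653599 to 65663090, had 1598, 1833 and 1847 normalised reads in siNT vehicle and 1314, 1373 and 1349 in siNT doxorubicin libraries, with no overlap. It fell by 0.37 in siNT cells (SE 0.11, adjusted p = 0.012), to 76.5% of vehicle. With library totals in place of size factors, which moved the median of all genes to 0.18, the RELA difference was −0.14 (adjusted p = 0.34). In siMLK4 cells its reads were 1993, 1888 and 1489 with vehicle and 1472, 1528 and 1531 with doxorubicin. These ranges overlapped, and the difference was −0.23 (SE 0.11, adjusted p = 0.097), or −0.35 (adjusted p = 0.0089) without siMLK4 vehicle replicate 3. NFKB1, on the plus strand of chromosome 4 from 102501330 to 102617302, ranged from 1005 to 1541 normalised reads over the 12 libraries, and its group means were 1410 ± 136, 1173 ± 145, 1188 ± 158 and 1079 ± 33.2 in the order siNT vehicle, siNT doxorubicin, siMLK4 vehicle and siMLK4 doxorubicin. No comparison of NFKB1 passed, the largest difference being −0.26 (SE 0.12, adjusted p = 0.087) for doxorubicin in siNT cells.

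REL, which encodes c-Rel and is best known from lymphoid cells, had the largest SD relative to its mean in 3 of the 4 groups, the exception being siMLK4 doxorubicin, where that of NFKBIA was larger. It had 243.1, 413.2 and 632 normalised reads in siNT vehicle, 239, 445.9 and 338.6 in siNT doxorubicin, 581.1, 430.4 and 296.2 in siMLK4 vehicle, and 407, 514.5 and 389.2 in siMLK4 doxorubicin libraries. All groups overlapped, no comparison passed, and the 95% interval for doxorubicin in siNT cells reached from −0.84 to 0.35. The gene lies on the plus strand of chromosome 2 from 60881491 to 60931612 and has the longest canonical transcript of the 10, at 11108 bases. All its annotated exons together, each base counted once, span 17129 bases, also the longest of the 10. That exon length was the one used for the length slopes that follow. Libraries differed in how read counts depended on gene length, and the slope, in log2 units per doubling of length over 11050 genes, was −0.082, 0.024 and 0.099 in siNT vehicle replicates 1 to 3 and 0.108, 0.031 and −0.107 in siMLK4 vehicle replicates 1 to 3. With doxorubicin it was −0.071, 0.044 and −0.019 in siNT and −0.013, 0.04 and −0.055 in siMLK4 replicates. REL was highest in siNT vehicle replicate 3 and siMLK4 vehicle replicate 1, the libraries with the steepest positive slopes, and among vehicle libraries lowest in the libraries with negative slopes. The part of this length dependence in the results was examined by adding the slope as a covariate, an alternative chosen after the values had been seen. In that fit REL passed for siMLK4 against siNT with doxorubicin (0.31, adjusted p = 0.024) and in no other comparison.

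**Figure D4:**
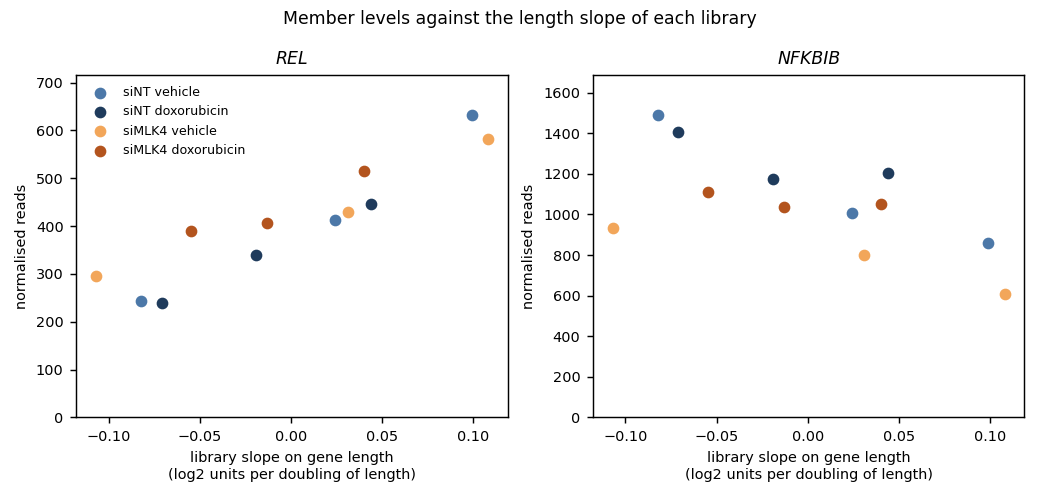
Normalised reads of REL (left) and NFKBIB (right) in the 12 libraries against the slope of each library on gene length (log2 units per doubling of length). REL reaches 632 and 581.1 reads in the libraries with slopes of 0.099 and 0.108, where NFKBIB has 861 and 607.2 reads.

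The changes of the classical IκB genes were not tested against each other, and none of these genes passed for doxorubicin in siNT cells. NFKBIA had 1969, 1481 and 1438 normalised reads in siNT vehicle libraries against 1589, 1351 and 1769 in siNT doxorubicin libraries, which overlapped (difference −0.05, SE 0.19, adjusted p = 0.85). In siMLK4 cells it had 1665, 2014 and 2677 with vehicle and 1403, 1097 and 1724 with doxorubicin. There it fell by 0.57 (SE 0.19, adjusted p = 0.019), to 66.4% of vehicle, although siMLK4 vehicle replicate 1 lay below siMLK4 doxorubicin replicate 3. The call was lost without siMLK4 vehicle replicate 3 (−0.39, adjusted p = 0.084), without siMLK4 doxorubicin replicate 2 (−0.41, adjusted p = 0.10) and with library totals as scaling (−0.39, adjusted p = 0.076). The 2 drug responses of NFKBIA differed by −0.52 (95% interval −1.09 to 0.05, adjusted p = 0.40). The gene lies on the minus strand of chromosome 14 from 35401079 to 35404749.

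NFKBIB, on the plus strand of chromosome 19 from 38899700 to 38908893, passed as higher with doxorubicin in siMLK4 cells. Its normalised reads in siMLK4 cells were 607.2, 800.1 and 935.2 with vehicle and 1037, 1051 and 1112 with doxorubicin, with no overlap. It rose by 0.44 (SE 0.18, adjusted p = 0.044), to 137% of vehicle. The call was not firm. It was lost with the replicate number as a block (adjusted p = 0.062) and when any of 8 of the 12 libraries was left out. Without siMLK4 vehicle replicate 1 the difference was 0.29 (adjusted p = 0.19), without siMLK4 vehicle replicate 2 the adjusted p was 0.074, and without siMLK4 doxorubicin replicates 1, 2 and 3 in turn it was 0.08, 0.082 and 0.10. Without siNT vehicle replicate 2 it was 0.053, and without siNT doxorubicin replicates 2 and 3 in turn it was 0.055 and 0.053. In siNT cells the reads were 1491, 1007 and 861 with vehicle and 1406, 1203 and 1172 with doxorubicin, and these overlapped (0.20, SE 0.18, adjusted p = 0.36). Its canonical transcript is the shortest of the 10, at 1192 bases, as is its exon length, at 2324 bases. The vehicle libraries in which it was highest were those with negative length slopes under each siRNA. NFKBIE, on the minus strand of chromosome 6 from 44258166 to 44265788, ranged from 194.3 to 359.3 normalised reads with overlap in every comparison, and no comparison passed (−0.23 for doxorubicin in siMLK4 cells, SE 0.18, adjusted p = 0.27).

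NFKBIZ encodes IκBζ, a nuclear cofactor that acts on a subset of NF-κB targets such as IL6. It had 275.9, 315.6 and 398.5 normalised reads in siNT vehicle, 259.3, 267.7 and 307.2 in siNT doxorubicin, 423.8, 321.8 and 298.4 in siMLK4 vehicle, and 206.1, 214.3 and 229.5 in siMLK4 doxorubicin libraries. The siMLK4 doxorubicin libraries were the lowest 3 of the 12. NFKBIZ fell by 0.57 with doxorubicin in siMLK4 cells (SE 0.14, adjusted p = 0.0033), to 62.2% of vehicle. In siNT cells the difference was −0.20 (SE 0.14, adjusted p = 0.23), and the 2 responses differed by −0.37 (SE 0.20, adjusted p = 0.44), so a difference between the siRNAs was not shown. The gene lies on the plus strand of chromosome 3 from 101827991 to 101861022.

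TNFAIP3 encodes A20, a ubiquitin-editing enzyme that shuts off signalling from TNF and other receptors to IKK, and was lower after MLK4 knock-down under both treatments. Its normalised reads were 944.1, 1014 and 1210 in siNT vehicle against 483.9, 644.7 and 382.7 in siMLK4 vehicle libraries. With doxorubicin they were 793.6, 1123 and 1038 in siNT against 486.7, 505.3 and 510.8 in siMLK4 libraries. All 6 siMLK4 libraries were below all 6 siNT libraries. TNFAIP3 was at 47.7% of the siNT mean with vehicle (−1.01, SE 0.16, adjusted p = 0.00053) and at 50.9% with doxorubicin (−0.89, SE 0.16, adjusted p = 0.0014). Doxorubicin itself gave −0.10 in siNT cells (95% interval −0.45 to 0.25, adjusted p = 0.61) and 0.02 in siMLK4 cells (−0.33 to 0.37, adjusted p = 0.93). Both siMLK4 calls held in every alternative that was run. The gene lies on the plus strand of chromosome 6 from 137867214 to 137883314.

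RELB had the widest range of group means of the 10, at 1.04 on the log2 scale, and TNFAIP3 came next at 1.01. The genes whose pattern over the 12 libraries was most like that of RELB, among 11056 genes with a mean of at least 100 normalised reads, were SLC35G2 (root mean square difference 0.16 after centring each gene), NFKB2 (0.161) and RELL1 (0.164). SLC35G2 had group means of 360, 582, 219 and 478 normalised reads and RELL1 of 479, 633, 352 and 711, in the order siNT vehicle, siNT doxorubicin, siMLK4 vehicle and siMLK4 doxorubicin. These are descriptions of 12 shared libraries with no test.

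Upstream of the family, 31 listed genes were all measured, those of the IKK complex, its activators and the ligase that acts on IκB after IKK. Doxorubicin raised 2 and lowered 8 of them in siNT cells (median −0.04) and raised 4 and lowered 7 in siMLK4 cells (median −0.02), beside 29.6% higher and 27.7% lower of all genes in siNT cells and 30.2% and 27.7% in siMLK4 cells. RIPK1, the kinase and scaffold of the TNF receptor complex, went from 825.5, 963.4 and 998 to 1742, 2059 and 1788 normalised reads in siNT cells, with no overlap, a rise of 0.96 (SE 0.13, adjusted p = 2.2e-05). In siMLK4 cells it rose by 0.56 (SE 0.13, adjusted p = 0.0017). MAP3K7, which encodes the IKK-activating kinase TAK1, rose by 0.68 in siNT and 0.69 in siMLK4 cells (adjusted p = 0.00015 and 0.00012). TRAF1, an adaptor that is itself a known NF-κB target, rose by 0.93 in siMLK4 cells (adjusted p = 0.00019), against 0.38 in siNT cells (adjusted p = 0.054), and the difference between these responses did not pass (adjusted p = 0.26).

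Among the genes of this upstream list that doxorubicin lowered, TRAF5, an adaptor of TNF receptor family members, fell by 0.89 in siNT cells (adjusted p = 0.00015) and by 1.33 in siMLK4 cells (adjusted p = 4.8e-06). TRAF2, an adaptor of the same receptors, fell by 0.81 in siNT cells (adjusted p = 0.00031), against −0.05 in siMLK4 cells (adjusted p = 0.79), and the 2 responses differed by 0.76 (SE 0.20, adjusted p = 0.088). PARP1, a sensor of DNA breaks, fell by 0.72 and 0.78 (adjusted p = 4.3e-05 and 2.2e-05). ATM had 1558, 2149 and 2672 normalised reads in siNT vehicle and 991.1, 1594 and 1257 in siNT doxorubicin libraries, which overlapped at the edge, and fell by 0.70 in siNT (SE 0.21, adjusted p = 0.011) and 0.72 in siMLK4 cells (SE 0.21, adjusted p = 0.0099). ATM mRNA in siMLK4 against siNT cells gave 0.08 with vehicle (adjusted p = 0.82) and 0.06 with doxorubicin (adjusted p = 0.86). IKBKG, which encodes NEMO, gave 0.30 for doxorubicin in siNT and 0.31 in siMLK4 cells (adjusted p = 0.088 and 0.084), and −0.16 and −0.15 for siMLK4 against siNT (adjusted p = 0.47 and 0.48).

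Knock-down raised 3 and lowered 4 of the 31 upstream genes with vehicle (median −0.08) and raised 5 and lowered 4 with doxorubicin (median 0.001), beside 12.7% higher and 13% lower of all genes with vehicle and 12.7% and 12.1% with doxorubicin. The count with vehicle, 7, was 3 when siMLK4 vehicle replicate 3 was left out and 4 when siNT vehicle replicate 1 was left out. BTRC, which encodes the β-TrCP subunit of the ligase that ubiquitinates phosphorylated IκB, had 463.8, 591.8 and 638.8 normalised reads in siNT vehicle and 1128, 1067 and 893 in siMLK4 vehicle libraries, with no overlap. It rose by 0.81 with vehicle (SE 0.13, adjusted p = 0.00055) and by 0.88 with doxorubicin (SE 0.13, adjusted p = 0.00034). PIDD1, which links DNA damage to NEMO modification, rose by 0.91 and 0.94 (adjusted p = 0.0066 and 0.0054), and PIAS4, a SUMO ligase of NEMO, rose by 0.34 and 0.51 (adjusted p = 0.047 and 0.0063). IKBKB, the gene of the IKKβ catalytic subunit, fell by 0.35 with vehicle and fell by 0.45 with doxorubicin (adjusted p = 0.025 and 0.0078). CHUK, the gene of IKKα, fell by 0.38 with vehicle (adjusted p = 0.033) and gave −0.14 with doxorubicin (adjusted p = 0.43). BIRC2 and BIRC3, which encode the ubiquitin ligases cIAP1 and cIAP2, passed as lower under both treatments (−0.32 and −0.52 for BIRC2, −0.57 and −0.49 for BIRC3). RIPK1 fell by 0.48 and TRAF1 rose by 0.62 with doxorubicin, and with vehicle they gave −0.08 and 0.07 and did not pass. For the difference between the drug responses 0 of the 31 passed, beside 0.576% of all genes higher and 0.623% lower. At an unadjusted p under 0.05 there were 5 by limma and 4 by limma-voom. The count that passed was 1 without siNT vehicle replicate 3 and 2 with the length slope as a covariate. Over all genes the slope fit gave 1405 calls for this difference, against 204 without it.

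Of 16 other inhibitors and cofactors, all measured, doxorubicin raised 4 and lowered 4 in siNT cells (median −0.07) and raised 4 and lowered 5 in siMLK4 cells (median −0.01), beside 29.6% and 27.7% of all genes in siNT and 30.2% and 27.7% in siMLK4 cells. CYLD, a deubiquitinase that opposes IKK activation, had 425.1, 389.3 and 498.4 normalised reads in siNT vehicle and 1455, 1721 and 1061 in siNT doxorubicin libraries. In siMLK4 cells it had 456.9, 488.2 and 377.3 with vehicle and 2026, 2508 and 1419 with doxorubicin. All drug-treated libraries were above all vehicle libraries, and CYLD rose by 1.56 (SE 0.20, adjusted p = 1.5e-05) and by 2.02 (SE 0.20, adjusted p = 1.7e-06). TAX1BP1, an adaptor of A20, rose by 0.83 and 0.69, and NFKBID, an atypical nuclear IκB gene, by 0.40 and 0.63. TNIP1, whose product binds A20, fell by 0.58 and 0.50, and COMMD1, which promotes turnover of RELA, fell by 0.52 and 0.52. The repressor gene NKRF (−0.57 and −0.42) and the A20-binding gene TNIP2 (−0.43 and −0.46) also passed as lower in siNT and siMLK4 cells.

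Knock-down lowered 1 of these 16 genes under each treatment, beside 13% of all genes with vehicle and 12.1% with doxorubicin, and raised 0, beside 12.7% and 12.7% (at an unadjusted p under 0.05, 2 of 16 by limma and 2 by limma-voom under each treatment). The gene was ITCH, a ubiquitin ligase of the A20 complex, which fell by 0.73 with vehicle (SE 0.11, adjusted p = 0.00024) and by 0.39 with doxorubicin (SE 0.11, adjusted p = 0.016). The call with doxorubicin was lost when replicate 2 or replicate 3 of the siNT drug-treated libraries, or replicate 1 or replicate 2 of the siMLK4 ones, was left out. The medians of the list were −0.09 and −0.03. The count that passed was 2 with vehicle without siNT vehicle replicate 1, and 2 with doxorubicin without siMLK4 doxorubicin replicate 3. For the difference between the drug responses 0 passed, beside 0.576% of all genes higher and 0.623% lower. At an unadjusted p under 0.05 there were 1 by limma and 2 by limma-voom.

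Downstream, 36 of 42 listed NF-κB target genes were in the table (not CCL2, LTB, VCAM1, BCL2A1, MMP9 and CFB). The list holds cytokine genes that the study itself named from these libraries, so it is not independent evidence of its direction. Doxorubicin raised 20 and lowered 4 of the 36 in siNT cells (median 0.34) and raised 19 and lowered 4 in siMLK4 cells (median 0.36), beside 29.6% higher and 27.7% lower of all genes in siNT and 30.2% and 27.7% in siMLK4 cells. IL6 had 4.697, 2.076 and 1.123 normalised reads in siNT vehicle and 467.9, 482.5 and 550.5 in siNT doxorubicin libraries, and 2.004, 0 and 3.243 in siMLK4 vehicle and 92.43, 65.04 and 172.4 in siMLK4 doxorubicin libraries. It rose under both siRNAs, by 3.92 and 2.20 on the variance-stabilised scale (adjusted p = 1.6e-08 and 1.2e-06), and the siMLK4 doxorubicin libraries were below every siNT doxorubicin library. ICAM1, an adhesion molecule gene, rose by 1.63 in siNT and 0.95 in siMLK4 cells (adjusted p = 7e-08 and 5.8e-06). The chemokine genes CXCL5 (1.32 and 1.47) and CXCL10 (0.55 and 1.72) also rose under both siRNAs. PTGS2, which encodes the prostaglandin synthase COX-2, fell by 1.14 in siNT cells (adjusted p = 0.00024), as did the cytokine gene CSF2 by 0.82 and the complement gene C3 by 0.59, against 0.08, −0.28 and −0.30 in siMLK4 cells. CSF2 had few reads, and its mean with doxorubicin was 33% of vehicle in siNT and 42.3% in siMLK4 cells. PLAU and CD44 fell by 0.59 and 0.57 in siMLK4 cells, against 0.04 and −0.30 in siNT cells. For none of these 5 genes did the difference between the responses pass (adjusted p = 0.051 for PTGS2, 0.37 for CSF2, 0.57 for C3, 0.18 for PLAU and 0.68 for CD44). PTGES passed as lower under both siRNAs (−0.56 and −1.07).

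Knock-down lowered 16 and raised 4 of the 36 targets with vehicle (median −0.38) and lowered 15 and raised 1 with doxorubicin (median −0.25). Of all genes, 13% were lower and 12.7% higher with vehicle, and 12.1% and 12.7% with doxorubicin. Fitted on the siNT and siMLK4 vehicle libraries alone, 12 of the 36 passed with vehicle, against 20 in the fit of all 12 libraries. Over all genes the calls of this comparison also fell, from 4381 to 2930, so a lower count is not particular to the targets. CXCL8, which encodes the chemokine IL-8, had 1058, 493.1 and 728.6 normalised reads in siNT vehicle and 73.14, 115.6 and 144.9 in siMLK4 vehicle libraries, with no overlap. It fell by 2.31 with vehicle (SE 0.26, adjusted p = 3.1e-05) and fell by 1.88 with doxorubicin (SE 0.26, adjusted p = 2e-04). PTGS2, IL1A, an interleukin-1 gene, and the plasminogen activator gene PLAU also passed as lower under both treatments, at −2.40, −2.07 and −0.99 with vehicle and −1.19, −1.55 and −1.63 with doxorubicin. IL6 fell by 1.85 with doxorubicin (adjusted p = 3.1e-05) and gave −0.13 with vehicle, where it had few reads (adjusted p = 0.68). The targets that rose with vehicle included EFNA1 at 0.59, ICAM1 at 0.50 and IL15 at 0.41, which gave 0.18, −0.18 and 0.09 with doxorubicin and did not pass there. CXCL10 rose by 1.29 with doxorubicin (adjusted p = 6.8e-06) and gave 0.12 with vehicle (adjusted p = 0.49). For the difference between the drug responses, 1 target passed as higher in siMLK4 cells (CXCL10, 1.17) and 2 as lower (IL6, −1.72, and ICAM1, −0.68), beside 0.576% and 0.623% of all genes and with 11 of the 36 at an unadjusted p under 0.05. The count of 3 was 1 with limma-voom, where ICAM1 passed (adjusted p = 0.047) and CXCL10 and IL6 did not (adjusted p = 0.13 and 0.61). The differences of CXCL10 and IL6 in that fit were 1.95 and −1.54. ICAM1 lost its call when any of 10 of the 12 libraries was left out, those other than siMLK4 vehicle replicate 1 and siMLK4 doxorubicin replicate 3 (adjusted p from 0.051 to 0.13).

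**Figure D5:**
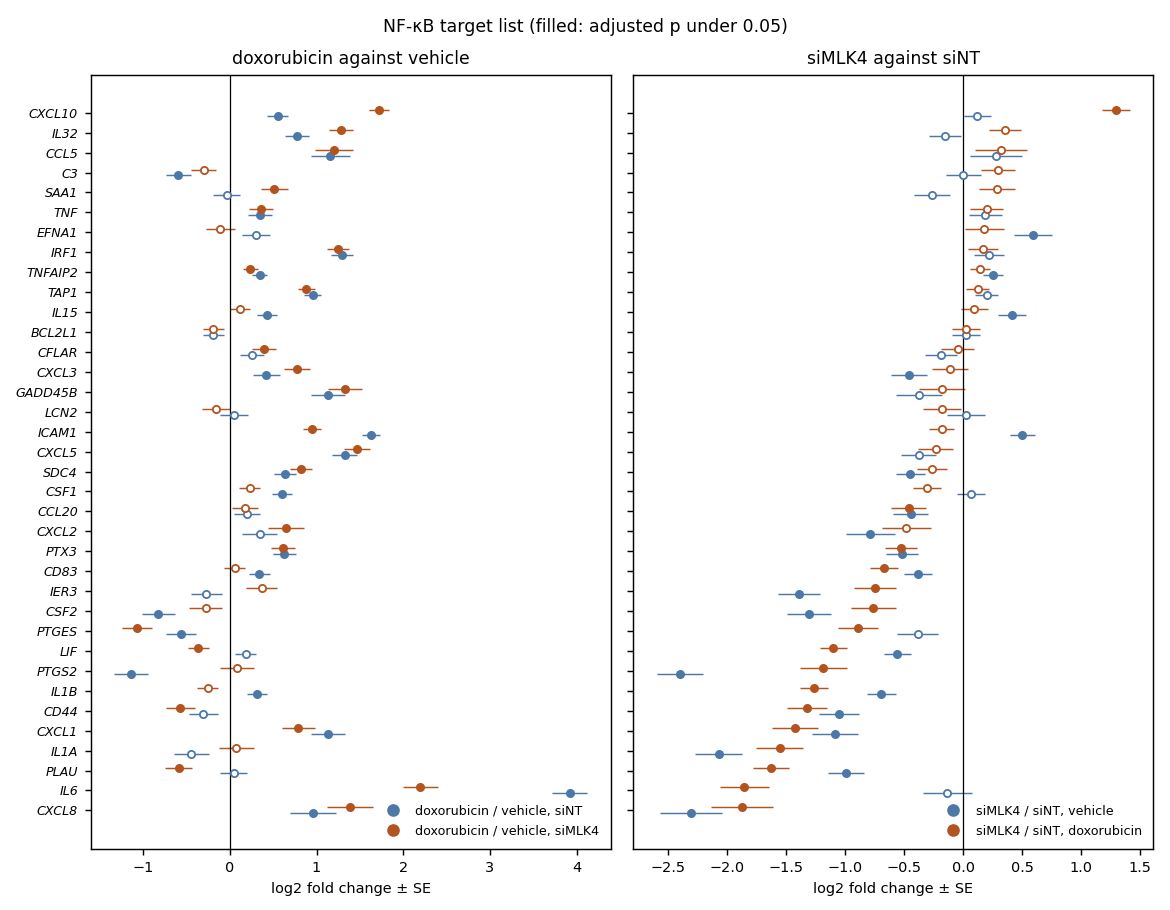
Log2 fold change with SE of the 36 measured NF-κB targets for doxorubicin against vehicle (left) and siMLK4 against siNT (right), filled where the adjusted p was under 0.05, in the order of the change with knock-down under doxorubicin. IL6 lies at 3.92 and 2.20 in the left panel, and CXCL8, PTGS2 and IL1A lie below −2 with vehicle in the right panel.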

How the data were processed

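Poly(A) RNA of 12 HCC1806 libraries was sequenced in pairs of reads. The submitters' processing notes name Trimmomatic 0.39, HISAT2, HTSeq 0.6.0 and DESeq2 1.26.0, and the build hg19, whereas the supplementary methods name GRCh38. No coordinates are in the table, and those given here are from GENCODE release 44 (GRCh38) by Ensembl ID, which matched 16957 of 17013 IDs. The log2 values deposited by the authors are variance-stabilised, which was read from the values themselves. Inverting the transformation returned whole reads within 0.05 for 100% of values in each library, with size factors from 0.8516 to 1.1993 and totals from 16759025 to 19302248 reads. The table was already filtered, and the highest group mean of a gene was never under 10.67 normalised reads. Limits on counts of 0 cover counting error only, since no molecular identifiers were used, whereas the 95% intervals of differences come from limma and cover the spread between libraries.

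Groups were taken from the sample labels, and columns were matched by sample title, since the descriptions of siMLK4 doxorubicin replicates 2 and 3 end in the same library index. The deposited log2 values were tested with limma 3.58.1 in R 4.3.3 (4 group means over 12 libraries, moderated variance with a trend, two-sided, Benjamini-Hochberg over 17013 genes), in 5 comparisons. The script was tested on simulated data. The members, gene lists and alternatives were chosen with earlier results of these data known. Named were all 10 members, MAP3K21, ATM, IKBKG and, from each other list and comparison, up to 3 genes in each direction with the largest change among those that passed. Length per gene was that of the canonical transcript for levels per kb. For the library slopes it was that of all annotated exons together, each base counted once.

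Across treatments under siNT, the deviations of same-numbered libraries from their group means had correlations of 0.58, 0.13 and 0.24. There siNT doxorubicin replicate 2 and siNT vehicle replicate 3 gave 0.43, so the numbers do not clearly pair these libraries. Across siRNAs with doxorubicin, same-numbered libraries deviated together, at 0.28, 0.65 and 0.62, against at most 0.07 for different numbers. This pairing comes from the values alone. In siMLK4 cells (−0.1, 0.27 and 0.44) and with vehicle (−0.84, 0.46 and −0.62) the numbers did not pair the libraries. Alternatives were TMM scaling, library totals, a filter of at least 10 reads in every library (13295 genes), log2 of normalised reads plus 1 or plus 5, no variance trend, limma-voom on the recovered reads, the compared groups alone, the replicate block, an adjusted p under 0.01 and each library left out. The slope of each library on gene length was added as a covariate after the values had been seen.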

Additional observations from a re-analysis of the deposited data

Results flagged for a closer look

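No member of the NF-κB family passed a test of the difference between the doxorubicin responses of siNT and siMLK4 cells, but 3 NF-κB target genes did, by limma with Benjamini-Hochberg adjustment over 17013 genes. The gene that passed was CXCL10 alone at an adjusted p under 0.01, and ICAM1 alone with limma-voom and with log2 of normalised reads plus 1, where CXCL10 had an adjusted p of 0.13 and 0.054 and IL6 of 0.61 and 0.26. The differences in these 2 fits were 1.95 and 1.97 for CXCL10 and −1.54 and −1.77 for IL6. With a minimum of 10 reads in every library CXCL10 and IL6 were not tested and ICAM1 passed. When each of the 12 libraries was left out in turn, CXCL10 and IL6 passed each time and ICAM1 lost its call in 10 cases (adjusted p up to 0.13). The response of CXCL10, a chemokine gene, was larger in siMLK4 cells by 1.17 (adjusted p = 0.0047). Its normalised reads were 4.697, 2.076 and 3.368 in siNT vehicle, 13.84, 13.23 and 18.25 in siNT doxorubicin, 4.008, 4.982 and 6.487 in siMLK4 vehicle, and 87.34, 72.54 and 108.9 in siMLK4 doxorubicin libraries. The response of IL6 was smaller in siMLK4 cells, by −1.72 (adjusted p = 0.011), with 500.3 ± 44.1 normalised reads in siNT and 109.9 ± 55.8 in siMLK4 doxorubicin cells (SD, n = 3). The response of ICAM1 was smaller by −0.68 (adjusted p = 0.042), and its vehicle level was 157.7 ± 6.53 in siNT and 244.4 ± 32.8 in siMLK4 cells against 592.6 ± 28.2 and 516.3 ± 31.8 with doxorubicin. Groups of 3 libraries are too small for a test of single outlying libraries.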

How the results depend on the processing

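Of 440 values of the 10 genes under the alternatives that kept all libraries and the threshold of 0.05, without the length slope, 435 kept their side of the threshold, 4 lost the call and 1 gained it, and none of these or of the 600 values with 1 library left out reversed a called direction. A change of direction in a value that passed in neither fit was not counted. With each library left out in turn, the count of members that passed ranged from 2 to 4 for doxorubicin in siNT cells (3 with all libraries), from 3 to 5 in siMLK4 cells (5), from 2 to 3 for knock-down with vehicle (2), from 1 to 1 with doxorubicin (1), and from 0 to 0 for the difference between responses (0). The lowest count in siMLK4 cells, 3, came without siMLK4 doxorubicin replicate 2. At an adjusted p under 0.01 the doxorubicin counts were 1 in siNT and 3 in siMLK4 cells. Library totals made NFKBIB pass for doxorubicin in siNT cells (0.43, adjusted p = 0.046), and shifted the median of all genes to 0.18 and 0.16 in the drug comparisons and to 0.107 and 0.086 in the knock-down comparisons. NFKBIB also passed there without siNT vehicle replicate 1 (0.41, adjusted p = 0.035), and for knock-down with vehicle without siNT vehicle replicate 3 (−0.64, adjusted p = 0.021) or siMLK4 vehicle replicate 3 (−0.61, adjusted p = 0.028). The causes were not tested.

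With the replicate block the counts were 3, 4, 2, 1 and 0 in the same order of comparisons. The block ended the call of NFKBIB in siMLK4 cells, where the numbers do not pair the libraries, and no other call of a member.

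With the length slope as a covariate, added after the values had been seen, the count was 6 for knock-down with vehicle (1 higher, 5 lower), 3 with doxorubicin (1 higher, 2 lower) and 2 for the difference between responses, where RELB gave 0.66 (adjusted p = 0.02) and NFKBIA −0.49 (adjusted p = 0.036). Over all 17013 genes the calls in that fit were 6893, 6852 and 1405, against 4381, 4219 and 204 without it, so the gain is not particular to the members. Of 50 values in that fit, 39 kept their side of the threshold and 11 gained a call. For the other lists, the count of targets with differing responses, 3, was 1 with a minimum of 10 reads (where 2 of the 3 were not tested), log2 plus 1, limma-voom or an adjusted p under 0.01 and 7 with the slope. For knock-down with vehicle, 7 upstream genes became 3 in the compared groups alone, at an adjusted p under 0.01 or without siMLK4 vehicle replicate 3, 4 without siNT vehicle replicate 1 and 11 with the slope, and 20 targets became 12 in the compared groups alone and 11 at an adjusted p under 0.01. Over all genes the 4381 calls of this comparison became 2930 in the compared groups alone and 2406 at an adjusted p under 0.01. They became 3833 without siMLK4 vehicle replicate 3 and 3727 without siNT vehicle replicate 1. With doxorubicin 9 upstream genes became 5 at an adjusted p under 0.01, and the count of 1 for other inhibitors became 0 at that threshold or when any of 4 doxorubicin libraries was left out (replicates 2 and 3 of siNT, replicates 1 and 2 of siMLK4). The same count for other inhibitors became 2 without siMLK4 doxorubicin replicate 3 and 4 with the slope. With vehicle their count of 1 became 2 with library totals, without siNT vehicle replicate 1 or with the slope. The 23 targets called for doxorubicin in siMLK4 cells became 15 with a minimum of 10 reads, which left 26 of the 36 targets to test, and the other 8 were not tested. Genes with few reads, such as IL6 with vehicle, have compressed fold changes at this depth.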
